A study of Mus musculus with 9 samples.

Results

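The genes described here are 32 imprinted genes of the mouse, taken by symbol from a table of 55276 gene symbols, and they were read in all 9 RNA-seq libraries of intrahepatic cholangiocarcinoma (iCCA) cells with and without an edit of *Vcam1*. They lie in 17 imprinted domains, 20 of them are known to be expressed from the paternal and 11 from the maternal allele, and *Gnas* has transcripts of either kind. Enough counts for a test were found for 21 of the 32 genes.

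An imprinted gene is expressed mainly from the copy inherited from 1 parent. The choice is set by DNA methylation that the egg or the sperm places on a control region, and many domains pair a growth gene with a long noncoding RNA that acts on its neighbors in cis. Imprinted genes are best known for fetal and placental growth, and several of them, *Igf2* and *H19* among them, are high in fetal liver and fall after birth. The counts used here are summed over alleles, so they give the level of a gene and not which allele made it.

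PPTR cells are an adherent line grown from liver cancer organoids of a genetic mouse model with Prom1CreERT2, an inducible Cre driven by *Prom1*, and the green reporter Rosa-ZsGreen. All groups shared that background and the same serum-containing medium. *Vcam1*ctrl cells (labelled WT) were compared with *Vcam1*KO1 and *Vcam1*KO2 cells, each 1 clone made with Cas9 and a guide to exon 2 of *Vcam1*, in 3 libraries per group from different passages. Because each clone descends from 1 cell, a difference between a clone and the control culture cannot be told apart from a difference that the founding cell already had. The p-values measure the spread between these libraries, and in bulk RNA fewer cells of a kind and less RNA per cell cannot be told apart.

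Libraries held between 53415907 and 125223073 counts, and levels are given as CPM, counts per 1000000 counts of a library after scaling. The floor used below is 3 counts, or 0.0239 to 0.0554 CPM depending on the library. *Vcam1* itself stood at 266 ± 56.5 CPM in *Vcam1*ctrl, 107 ± 19.1 CPM in *Vcam1*KO1 and 100 ± 17.9 CPM in *Vcam1*KO2 cells (SD, n = 3 each), 40.0% and 37.7% of the control level, and counts of transcripts do not show whether these carry the edit. By biliary markers the labelled cell type held for the control and only in part for the clones. The control also held hepatocyte markers, which summed to between 633 and 1017 CPM there. The biliary keratins *Krt19* (between 2129 and 2406 CPM in *Vcam1*ctrl libraries) and *Krt7* were at 0.806 CPM or below in all clone libraries, while the biliary genes *Sox9* and *Spp1* were at 107 CPM or above in all of them. Of 14 biliary markers 10 fell and 2 rose in each clone. Of 14 fibroblast markers 11 were tested, and 8 rose and 1 fell in *Vcam1*KO1, while 9 rose and 0 fell in *Vcam1*KO2. *Col1a1* was the highest of these in every clone library (7780 to 9204 CPM in *Vcam1*KO1, 4199 to 5008 CPM in *Vcam1*KO2). *Dcn* went from between 58.3 and 105 CPM in *Vcam1*ctrl to between 2.16 and 8.35 CPM in *Vcam1*KO1. The summed level of 14 fibroblast markers lay between 635 and 1151 CPM in *Vcam1*ctrl, between 14752 and 17385 CPM in *Vcam1*KO1 and between 8555 and 10410 CPM in *Vcam1*KO2 cells, that of 12 hepatocyte markers fell from at least 633 CPM to at most 3.10 CPM, and 10 endothelial markers summed to at most 15.3 CPM and 9 haematopoietic markers to at most 10.6 CPM in any library, with *Tyrobp* at 0 in all. The part of these shifts in the changes below was not tested.

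Replicate 1 of *Vcam1*KO1 stood apart from the other libraries. Replicate numbers follow the order of the sample labels within a group, and the labels themselves give none. It held 10 genes with at least 20 counts there and at most 3 counts in each of the others, where no other library held more than 5 such genes. The 3 highest were embryonic globins, *Hbb-y* with 366, *Hba-x* with 278 and *Hbb-bh1* with 211 counts, and 2 of the 10, *Nnat* with 67 and *Dlk1* with 49 counts, are among the imprinted genes. The other 5 genes above that limit were *Igdcc3*, *Actc1*, *Lin28a*, *Fndc3c1* and *Myh6*. *H19*, *Mest*, *Peg10*, *Peg3*, *Ndn*, *Nnat* and *Dlk1* were each at least 5 times higher in that library than the mean of replicates 2 and 3, with 10 counts or more. The globins were chosen after their counts were seen, their link to these genes was not tested, and the tested genes among them are given with and without that library.

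**Figure D1:**
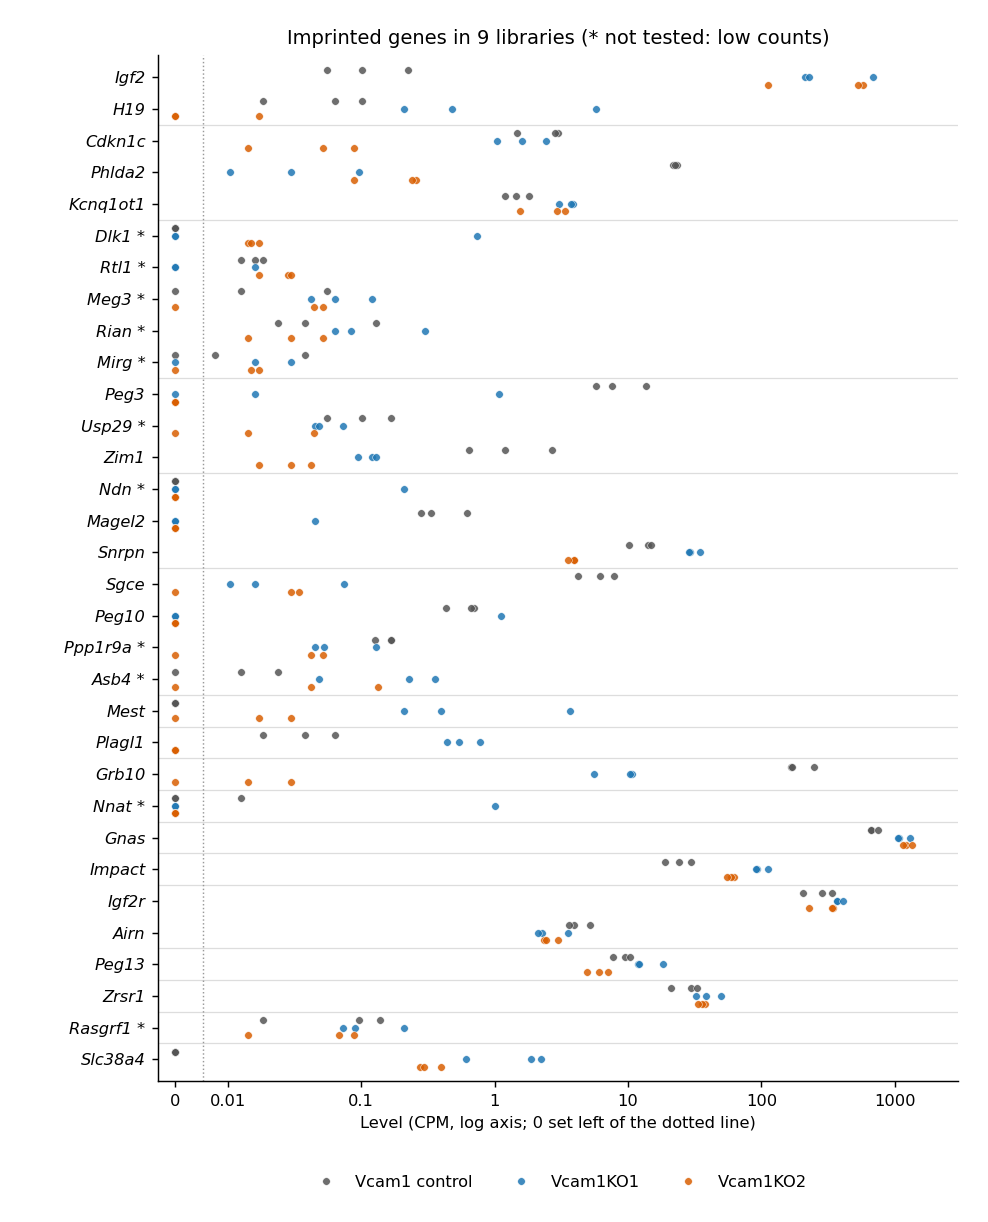
Level of each of the 32 imprinted genes in CPM (log axis, values of 0 set left of the dotted line) in the 9 libraries, with 1 point per library, 3 per group, and domains set apart by grey lines. Levels can be compared across libraries of a gene but not between genes, since CPM is not per length. *Igf2* lies under 0.3 CPM in the *Vcam1*ctrl libraries and above 100 CPM in all 6 clone libraries, while the points of *Phlda2*, *Sgce*, *Peg3* and *Grb10* lie far to the left of control in both clones.

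In *Vcam1*KO1 cells 11 of the 21 tested genes rose, 7 fell and 3 did not pass the test. Over all 17672 genes tested 59.9% were called in this comparison, 29.9% higher and 30.0% lower. In *Vcam1*KO2 cells 4 rose, 12 fell and 5 did not pass, where 51.4% of all genes were called, 25.3% higher and 26.1% lower. Between the clones 10 differed, 9 higher and 1 lower in *Vcam1*KO1, against 38.7% of all genes. With the 6 clone libraries pooled against control, so that differences between clones count as spread, 12 were called (5 higher, 7 lower), against 43.0% of all genes. All tests were edgeR quasi-likelihood tests with Benjamini-Hochberg adjustment over all genes and a threshold of 0.05, and both clones were set against the same 3 control libraries. A gene that passed the filter on low counts only because 1 group was high had to differ, so these shares are no measure of how often imprinted genes change. Without replicate 1 of *Vcam1*KO1, 17 were called in *Vcam1*KO1 (10 higher, 7 lower), 17 in *Vcam1*KO2, 9 between the clones and 12 in the pooled comparison.

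**Figure D2:**
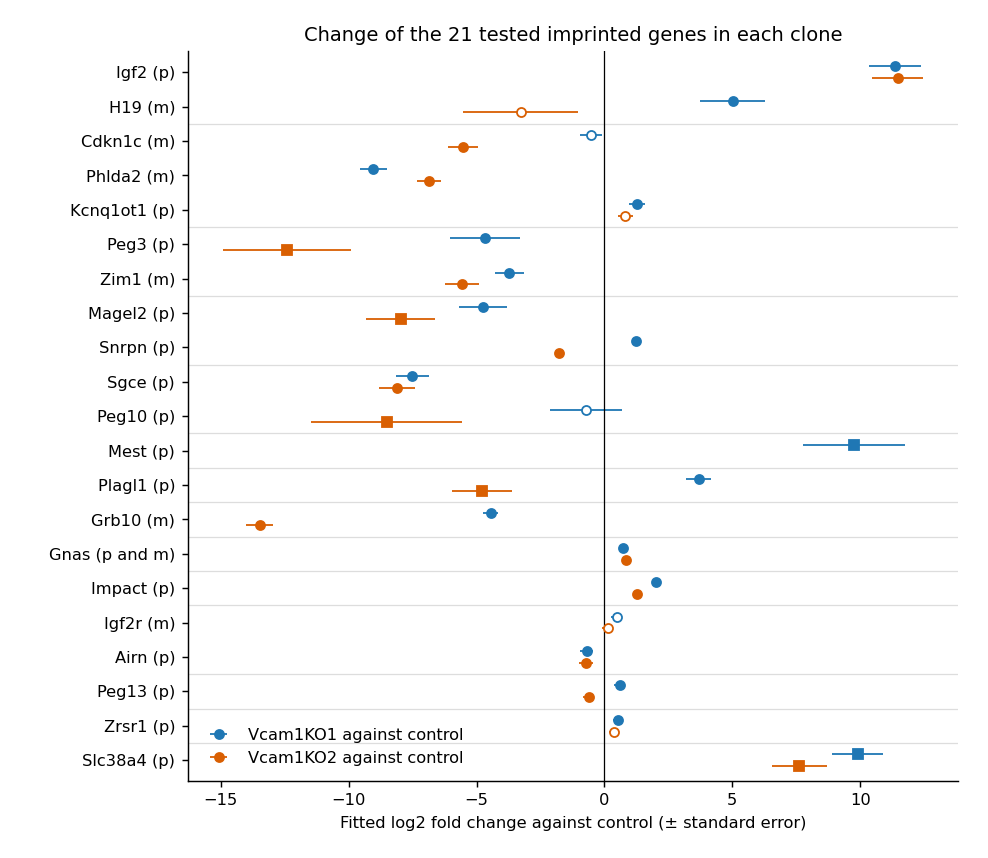
Fitted log2 fold change of the 21 tested genes in *Vcam1*KO1 (blue) and *Vcam1*KO2 (orange) against *Vcam1*ctrl, with bars of 1 standard error, filled where the adjusted p is under 0.05, and p or m for the parental allele known to be expressed. Squares mark genes with 0 counts in every library of a group, whose fitted value depends on the prior count and is no bound, and *Mest* in *Vcam1*KO2 is left out because both groups were at or under 3 counts. *Igf2* is at 11.35 and 11.46, and *Snrpn*, *Plagl1* and *Peg13* lie on opposite sides of 0 in the clones.

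*Igf2*, insulin-like growth factor 2, is the fetal ligand of the *Igf1* receptor and the insulin receptor, and it had the largest fitted increase of the 32 genes in *Vcam1*KO2 and in *Vcam1*KO1 cells. The gene lies at chr7:142650766-142666816 on the minus strand of GRCm38. It stood at 0.223, 0.0554 and 0.101 CPM in the *Vcam1*ctrl libraries, which is 3 to 28 counts. In *Vcam1*KO1 libraries it stood at 211, 228 and 690 CPM. In *Vcam1*KO2 libraries it stood at 579, 527 and 112 CPM. Every clone library was above every control library, and the clones overlapped. On the log2 scale the change was 11.35 (standard error 1.01, adjusted p = 1.2e-05) in *Vcam1*KO1 and 11.46 (standard error 1.01, adjusted p = 1.5e-05) in *Vcam1*KO2 cells. The log2 difference between the clones was -0.11 (95% interval -1.33 to 1.11, adjusted p = 0.91), and its sign turned when some single libraries were left out. The annotation holds *Gm49394* over the same stretch and strand and *Igf2os* on the opposite strand, and both rose with it, *Gm49394* from 0 to 5.93 and 1.31 CPM and *Igf2os* to 0.543 and 0.313 CPM. Reads shared between *Igf2* and *Gm49394* are divided by estimate, so the level of *Gm49394* is uncertain.

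The spread of *Igf2* among clone libraries was wide, and the same libraries were extreme for other genes. Replicate 3 of *Vcam1*KO1, with the highest *Igf2*, had 187 CPM of *Igf1*, against 49.4 and 42.5 CPM in replicates 1 and 2, and 27.7 CPM of the proliferation marker *Mki67*, against 216 and 239 CPM. Replicate 3 of *Vcam1*KO2, with the lowest *Igf2* of the clone libraries, had 30.3 CPM of *Igf1*, against 58.2 and 55.1 CPM, and 332 CPM of *Mki67*, against 178 and 180 CPM. The control libraries had between 114 and 179 CPM of *Mki67* and at most 0.152 CPM of *Igf1*. These 2 genes were chosen after their values were seen, and the part of proliferation in the spread of *Igf2* was not tested.

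**Figure D3:**
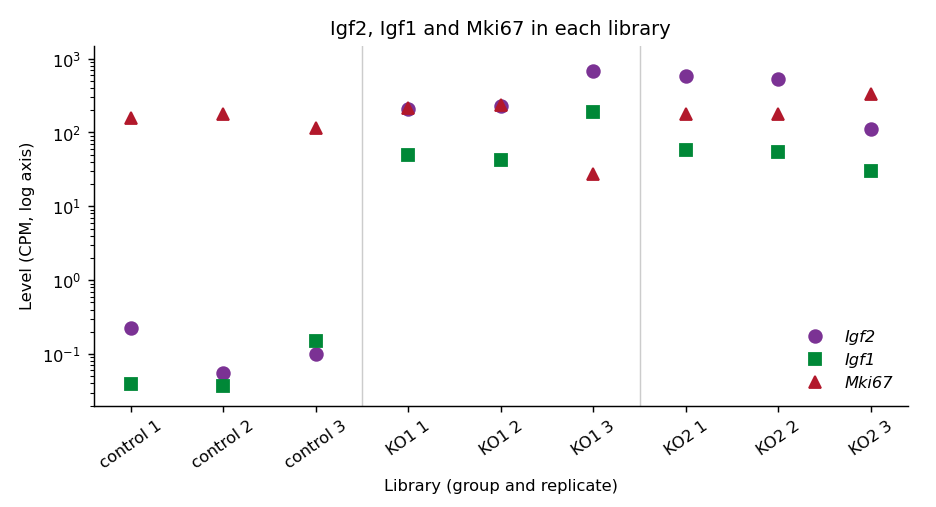
Level in CPM (log axis) of *Igf2* (circles), *Igf1* (squares) and *Mki67* (triangles) in each of the 9 libraries, 1 point per gene and library, ordered by group. In replicate 3 of *Vcam1*KO1 *Igf2* is highest (690 CPM) and *Mki67* lowest (27.7 CPM), and in replicate 3 of *Vcam1*KO2 *Igf2* is the lowest of the clone libraries (112 CPM) and *Mki67* the highest (332 CPM).

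For *Igf2*, 4 promoter windows are listed in RefSeq (GRCm38.p6), each from 250 bases before to 50 bases after a transcript start. Promoters are shown here because *Zfp57*, a zinc finger protein that keeps methylation at imprinting control regions and reads the letters TGCCGC when these are methylated, was itself lower in the clones (values below). Neither methylation nor binding of *Zfp57* was measured at any window, so a match to the letters is not a known target. Of the *Igf2* windows, 1 held these letters. It spans chr7:142661222-142661521 on the minus strand, and capitals mark TGCCGC or, on the other strand, GCGGCA:
*Igf2*: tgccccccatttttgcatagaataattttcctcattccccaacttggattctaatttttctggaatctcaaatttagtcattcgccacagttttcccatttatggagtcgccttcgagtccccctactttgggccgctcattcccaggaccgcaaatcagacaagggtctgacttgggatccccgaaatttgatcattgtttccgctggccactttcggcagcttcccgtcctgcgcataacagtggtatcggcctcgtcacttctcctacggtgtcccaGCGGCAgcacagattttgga

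*H19*, the maternally expressed noncoding RNA that shares enhancers with *Igf2* and carries the precursor of miR-675, lies at chr7:142575529-142578143 on the minus strand. It did not follow *Igf2* in *Vcam1*KO2 cells. It had 8, 1 and 8 counts in the control libraries. In *Vcam1*KO1 libraries it had 382, 20 and 30 counts (5.72, 0.209 and 0.479 CPM). In *Vcam1*KO2 libraries it had 1, 0 and 0 counts. All *Vcam1*KO1 libraries were above control. All *Vcam1*KO2 libraries were below it, but under the floor and by a margin that rests on library size. Replicate 1 of *Vcam1*KO2 (0.0171 CPM) and replicate 2 of *Vcam1*ctrl (0.0185 CPM) had 1 count each. The fitted log2 change of *H19* was 5.02 in *Vcam1*KO1 (standard error 1.27, adjusted p = 0.007), and 2.32 without replicate 1 (adjusted p = 0.0221). In *Vcam1*KO2 the summed level was 12.9 times below control (exact 95% interval 2.02 to 540, counting error only), with adjusted p = 0.25, and 0.0386 when replicate 1 of *Vcam1*KO1 was left out of the shared fit. The clones differed (adjusted p = 0.0053), with a ratio of 377 (exact 95% interval 67.3 to 14932, counting error only). Without replicate 1 the ratio was 62.1 (exact 95% interval 10.6 to 2499; adjusted p = 0.00463).

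Growth factor signaling by *Igf2* also depends on imprinted inhibitors, and the strongest of these changes was in *Grb10*, an adaptor that binds and restrains the insulin and *Igf1* receptors and is expressed from the maternal allele outside the nervous system. *Grb10* lies at chr11:11930508-12038683 on the minus strand. It stood at 167, 247 and 170 CPM in the *Vcam1*ctrl libraries and at 10.8, 10.3 and 5.60 CPM in the *Vcam1*KO1 libraries. In the *Vcam1*KO2 libraries it had 0, 1 and 2 counts. The 3 groups did not overlap. The log2 fold change was -4.45 in *Vcam1*KO1 (standard error 0.30, adjusted p = 2.1e-06), a 21.9-fold decrease. In *Vcam1*KO2 the level was 12115 times below control (exact 95% interval 4145 to 58748, counting error only; adjusted p = 1.4e-07). The clones differed from each other as well (adjusted p = 4.9e-06), with a ratio of 599 (exact 95% interval 205 to 2907). Within 1 Mb, 2 genes that are not known as imprinted were tested, and their median log2 fold change was -1.19 and -1.79. Of its promoter windows, that which held the *Zfp57* letters had 45 CpG dinucleotides and lies at chr11:12037371-12037670 on the minus strand, shown because *Grb10* had the largest fitted difference between the clones, with those letters in capitals:
*Grb10*: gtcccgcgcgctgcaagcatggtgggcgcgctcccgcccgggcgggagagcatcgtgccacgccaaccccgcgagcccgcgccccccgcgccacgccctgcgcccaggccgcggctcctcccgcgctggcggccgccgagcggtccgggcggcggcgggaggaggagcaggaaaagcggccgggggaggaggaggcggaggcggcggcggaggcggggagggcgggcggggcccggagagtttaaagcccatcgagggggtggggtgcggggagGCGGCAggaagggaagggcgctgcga

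*Igf2r*, the mannose 6-phosphate receptor that takes up *Igf2* for breakdown and is expressed from the maternal allele in mice, did not pass the test in either clone. It stood at 285, 206 and 340 CPM in *Vcam1*ctrl, 372, 372 and 412 CPM in *Vcam1*KO1 and 342, 339 and 229 CPM in *Vcam1*KO2 libraries. On the log2 scale the change was 0.48 in *Vcam1*KO1 (95% interval 0.07 to 0.88, adjusted p = 0.071) and 0.13 in *Vcam1*KO2 (-0.27 to 0.54, adjusted p = 0.62). Without replicate 3 of *Vcam1*ctrl the first of these was called (0.64, adjusted p = 0.0304). *Airn*, the paternal antisense RNA that starts within *Igf2r* and represses it in cis, stood at 3.91, 3.64 and 5.20 CPM in *Vcam1*ctrl, 2.28, 2.10 and 3.53 CPM in *Vcam1*KO1 and 2.98, 2.36 and 2.41 CPM in *Vcam1*KO2 libraries. Every clone library was below every control library, with log2 fold changes of -0.69 in *Vcam1*KO1 and -0.72 in *Vcam1*KO2 (adjusted p = 0.044 in both). These calls were narrow: leaving out any of several single libraries took the adjusted p to between 0.0519 and 0.14. *Airn* lies over the start of *Igf2r* on the opposite strand, and the counting used strand.

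The other partners of *Igf2* were mixed. Of 8 receptors, binding partners and paralogs, 2 rose and 2 fell in *Vcam1*KO1 and 2 rose and 2 fell in *Vcam1*KO2 cells. Over all genes tested 59.9% were called in *Vcam1*KO1 and 51.4% in *Vcam1*KO2. *Igf1r* was at 51.5 ± 17.4 CPM in *Vcam1*ctrl, 48.6 ± 10.1 CPM in *Vcam1*KO1 and 49.5 ± 6.04 CPM in *Vcam1*KO2 cells (SD, n = 3 each), with adjusted p = 0.79 and 0.87. *Insr* was at 38.3 ± 5.59, 37.5 ± 3.72 and 28.2 ± 5.61 CPM, with adjusted p = 0.89 and 0.056. *Igf1*, the postnatal ligand of the same receptor, rose from 0.0762 ± 0.0655 CPM to 93.0 ± 81.7 and 47.9 ± 15.3 CPM (log2 fold changes 10.25 and 9.30, adjusted p = 1e-05 and 2.1e-05).

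The *Kcnq1* domain follows *Igf2* on distal chromosome 7, and its maternally expressed genes *Phlda2*, in both clones, and *Cdkn1c*, in *Vcam1*KO2, fell while its paternal noncoding RNA did not. *Phlda2*, a small protein that restrains placental growth, at chr7:143501545-143503150, stood at 21.8, 23.2 and 22.6 CPM in the control libraries. It had 1 to 6 counts in the *Vcam1*KO1 libraries and 6 to 17 counts in the *Vcam1*KO2 libraries. All clone libraries were far below control. Its fitted log2 change was -9.04 in *Vcam1*KO1 (standard error 0.54, adjusted p = 1.1e-06) and -6.85 in *Vcam1*KO2 (standard error 0.47, adjusted p = 2.9e-06). The clones differed by -2.20 (adjusted p = 0.019) although their libraries overlapped, and this call was lost, with adjusted p between 0.0506 and 0.0654, without replicate 1 or 2 of either clone.

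*Cdkn1c* encodes p57Kip2, an inhibitor of cyclin-dependent kinases, at chr7:143458339-143461050, and it fell in *Vcam1*KO2 cells. It stood at 3, 1.48 and 2.82 CPM in *Vcam1*ctrl and at 2.43, 1.61 and 1.04 CPM in *Vcam1*KO1 libraries, which overlapped. In the *Vcam1*KO2 libraries it stood at 0.0514, 0.0141 and 0.0887 CPM, under all others. The log2 fold change was -0.53 in *Vcam1*KO1 (95% interval -1.39 to 0.34, adjusted p = 0.33) and -5.53 in *Vcam1*KO2 (standard error 0.60, adjusted p = 5.4e-05). The difference between the clones was 5.01 (standard error 0.60, adjusted p = 0.00028).

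*Kcnq1ot1*, the paternal antisense RNA that silences this domain in cis, stood at 1.20, 1.44 and 1.82 CPM in *Vcam1*ctrl, 3.05, 3.88 and 3.72 CPM in *Vcam1*KO1 and 3.36, 1.56 and 2.93 CPM in *Vcam1*KO2 libraries. It rose in *Vcam1*KO1 cells (log2 fold change 1.26, standard error 0.31, adjusted p = 0.0064). In *Vcam1*KO2 the value was 0.82 (95% interval 0.20 to 1.43, adjusted p = 0.052), and it was called without replicate 2 of that clone (1.08, adjusted p = 0.0122), without replicate 3 of *Vcam1*ctrl (0.99, adjusted p = 0.0469) and by DESeq2 (adjusted p = 0.0322). *Kcnq1*, the potassium channel gene on the other strand, fell from 4.22 ± 2.68 CPM to 0.125 ± 0.0356 and 0.0449 ± 0.0225 CPM (SD, n = 3 each; log2 fold changes -5.06 and -6.49). *Slc22a18*, an organic cation transporter of the domain that is also maternally expressed, fell from 39.1 ± 16.5 CPM to 6.84 ± 1.5 and 0.404 ± 0.171 CPM (log2 fold changes -2.52 and -6.59, adjusted p = 0.00024 and 2.9e-06), and it was lower in *Vcam1*KO2 than in *Vcam1*KO1 (adjusted p = 0.00011).

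Of all genes tested, 29.9% were higher in *Vcam1*KO1 and 25.3% in *Vcam1*KO2. Of 15 tested genes within 300 kb of *H19*, *Igf2* and *H19* included, 14 were higher and 0 lower in *Vcam1*KO1, and 9 were higher and 0 lower in *Vcam1*KO2. A gene that passed the filter on low counts only because the clones were high had to be higher, so these counts are no measure of a rise over the region. Among the 15 were *Lsp1*, an actin-binding protein of leukocytes, at log2 fold changes of 5.01 and 4.70, and the synaptotagmin *Syt8*, at 4.39 and 2.02. The fast skeletal muscle troponins *Tnnt3* (5.27 and 3.57) and *Tnni2* (4.75 and 2.31) averaged 0.0157 and 0.04 CPM in control, at or under the floor. *Tnnt3* averaged 0.665 and 0.201 CPM in the clones and *Tnni2* 1.22 and 0.226 CPM, so the size of these folds is uncertain. Within 1 Mb of *Igf2* or *H19*, 25 tested genes that are not known as imprinted had a median log2 fold change of 0.99 in *Vcam1*KO1 (13 higher, 9 lower) and 0.27 in *Vcam1*KO2 (10 higher, 4 lower). Over chromosome 7 the median of 1331 such genes was -0.01 and -0.07. The imprinted genes *Cd81*, a tetraspanin, *Tssc4* and *Nap1l4*, a histone chaperone, had log2 fold changes between 0.12 and 0.33. None of them passed the test in either clone, although *Nap1l4* neighbors *Phlda2*. Of the other imprinted genes on distal chromosome 7, *Ascl2* was higher in *Vcam1*KO2 (log2 fold change 3.82) and not called in *Vcam1*KO1 (0.95). *Ascl2* averaged 0.0341 CPM in control, in the range of the floor, and 0.477 CPM in *Vcam1*KO2. *Tnfrsf23* was lower in both clones (-3.87 in *Vcam1*KO1 and -1.01 in *Vcam1*KO2). *Dhcr7* was lower in *Vcam1*KO1 only (-0.39), and *Osbpl5* was not called in either clone (0.69 and -0.63). The genes named in this paragraph were chosen after their values were seen, and the limit of 300 kb was not planned, unlike that of 1 Mb. *Gm49394* and *Igf2os*, which overlap *Igf2*, are among the 15 genes and also among the 25.

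**Figure D4:**
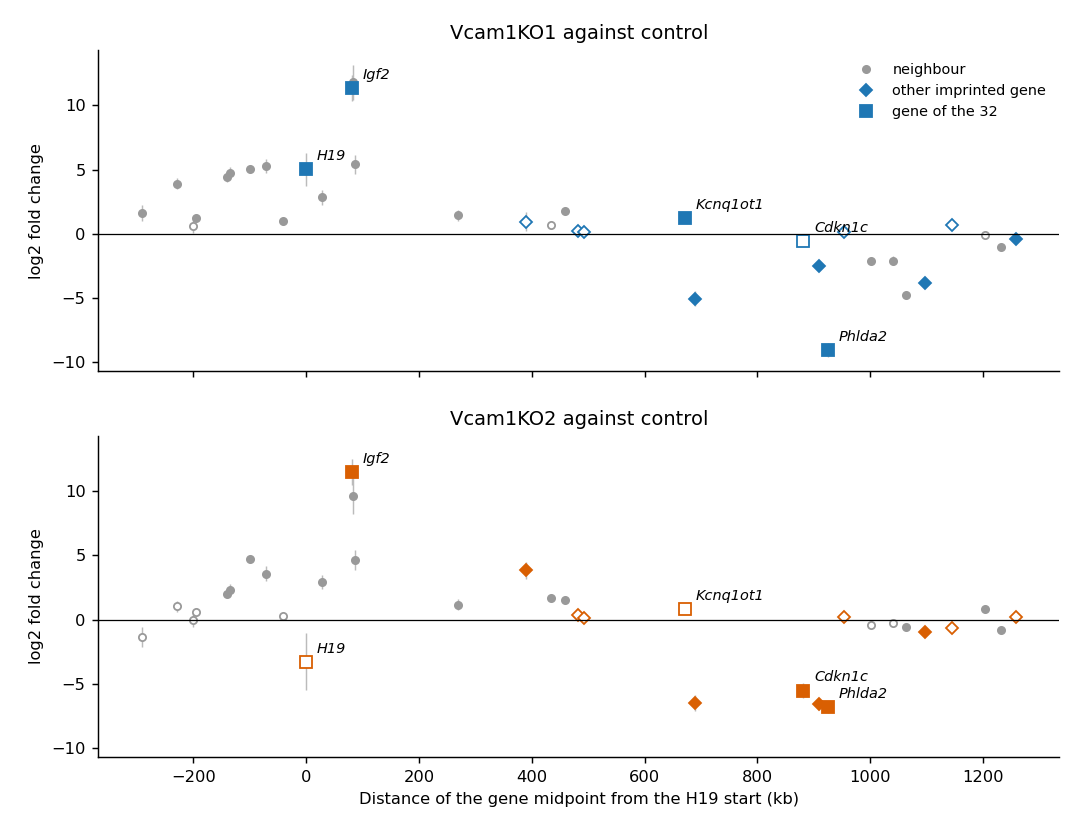
Log2 fold change (bars of 1 standard error) of tested genes on distal chromosome 7 by the distance of the gene's midpoint from the *H19* start in kb, in *Vcam1*KO1 (top) and *Vcam1*KO2 (bottom) against *Vcam1*ctrl. Squares are genes of the 32, diamonds other imprinted genes and grey circles neighbors, filled where the adjusted p is under 0.05. *Igf2* is far above 0 in both panels, *Phlda2* is at -9.04 and -6.85, and *Cdkn1c* is at -5.53 in the lower panel.

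In the *Peg3* and *Peg10* domains most transcripts were near the floor in the clones. *Peg3*, a paternal zinc finger gene at chr7:6703892-6730431, had 954, 313 and 1082 counts in the control libraries (7.6, 5.78 and 13.7 CPM). In the *Vcam1*KO1 libraries it had 72, 0 and 1 counts, and in the *Vcam1*KO2 libraries 0 counts. It was lower in *Vcam1*KO1 by -4.66 (standard error 1.37, adjusted p = 0.02), and without replicate 1, which left 1 count, it was 1439 times below control (exact 95% interval 258 to 56852, counting error only; adjusted p = 0.000158). With replicate 1 of *Vcam1*KO1 kept, the call did not hold by DESeq2 (adjusted p = 0.0704) or without replicate 3 of *Vcam1*ctrl (0.0523). In *Vcam1*KO2 it was at least 196-fold lower, taking 3 counts per library as the floor (adjusted p = 0.0045). Between the clones the adjusted p was 0.085, and 0.415 without replicate 1 of *Vcam1*KO1, where both clones are at or under the floor. *Zim1*, a maternal zinc finger gene of the same domain, stood at 1.19, 0.646 and 2.68 CPM in *Vcam1*ctrl, between 0.0939 and 0.128 CPM in *Vcam1*KO1 and between 0.0171 and 0.0424 CPM in *Vcam1*KO2 libraries. It fell by 3.72 on the log2 scale in *Vcam1*KO1 (adjusted p = 0.00032). In *Vcam1*KO2 it was 50.2 times below control (exact 95% interval 22.8 to 138, counting error only; adjusted p = 9.4e-05). So genes of opposite parental class in this domain fell together. *Usp29*, a peptidase gene whose RefSeq promoter window shares 263 of 300 bases with that of *Peg3*, had at most 21 counts in any library and was not tested.

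*Sgce* and *Peg10* start head to head on chromosome 6 and are both paternal. *Sgce*, epsilon-sarcoglycan of the dystrophin complex, at chr6:4674350-4747207, stood at 7.83, 6.18 and 4.25 CPM in *Vcam1*ctrl libraries. It had 5, 1 and 1 counts in the *Vcam1*KO1 and 2, 0 and 2 counts in the *Vcam1*KO2 libraries. The decrease was -7.51 on the log2 scale in *Vcam1*KO1 (standard error 0.66, adjusted p = 1.1e-05). In *Vcam1*KO2 the level was 314 times below control (exact 95% interval 123 to 1155, counting error only; adjusted p = 1.3e-05). *Peg10*, a retrotransposon-derived gag-pol gene essential for the placenta, had 88, 36 and 34 counts in *Vcam1*ctrl libraries and 0 in all *Vcam1*KO2 libraries, at least 13-fold lower (adjusted p = 0.044). In *Vcam1*KO1 it had 74, 0 and 0 counts. Its test there gave -0.72 (adjusted p = 0.69) with all libraries. Without replicate 1, *Peg10* was at 0 in *Vcam1*KO1 and at least 15.1-fold lower than control (adjusted p = 0.000983), and limma-voom called it lower with all libraries (adjusted p = 0.0232). Between the clones the adjusted p was 0.084, and without replicate 1 both were at 0. The call in *Vcam1*KO2 was lost without any 1 of the control or *Vcam1*KO2 libraries, with adjusted p between 0.0693 and 0.0917. *Asb4* and *Ppp1r9a*, maternal genes further along the domain, had at most 24 and 21 counts and were not tested.

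In the *Snrpn* domain, the Prader-Willi region in humans, genes of the paternal class parted. *Magel2*, a MAGE family gene of endosomal recycling, had 35, 18 and 49 counts in *Vcam1*ctrl libraries. It had 3, 0 and 0 counts in the *Vcam1*KO1 libraries, 29.6 times below control (exact 95% interval 9.85 to 146, counting error only; adjusted p = 0.0031). These 3 counts were in replicate 1, and without it *Magel2* was at least 10.4-fold lower (adjusted p = 0.00274). It had 0 in the *Vcam1*KO2 libraries, at least 8.91-fold lower (adjusted p = 0.0018). *Ndn*, necdin, was counted only in replicate 1 of *Vcam1*KO1, at 14 counts.

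*Snrpn*, which encodes a core protein of spliceosomal small nuclear RNPs, at chr7:59982495-60140219, stood at 14.2, 10.2 and 14.8 CPM in *Vcam1*ctrl libraries. It stood at 29.0, 28.8 and 34.9 CPM in the *Vcam1*KO1 and at 3.96, 3.95 and 3.58 CPM in the *Vcam1*KO2 libraries. The 3 groups did not overlap, with 1 clone above and the other below control. On the log2 scale the change was 1.24 in *Vcam1*KO1 (standard error 0.17, adjusted p = 0.00018) and -1.77 in *Vcam1*KO2 (standard error 0.17, adjusted p = 2.7e-05). The difference of 3.01 between the clones (standard error 0.18) had adjusted p = 5.9e-06. *Snurf*, the reading frame that shares the transcript, was at 0.466, 0.534 and 0.0945 CPM on average, and reads of the 2 are divided by estimate.

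*Plagl1*, the zinc finger transcription factor Zac1, showed the same opposite order at low levels. The gene lies at chr10:13060504-13131694. It had 8, 1 and 3 counts in *Vcam1*ctrl libraries. In the *Vcam1*KO1 libraries it had 36, 42 and 49 counts (0.539, 0.438 and 0.782 CPM), and in the *Vcam1*KO2 libraries 0. It rose in *Vcam1*KO1 (log2 fold change 3.68, standard error 0.50, adjusted p = 0.0005). In *Vcam1*KO2 it was called lower (adjusted p = 0.01), but the control level lies at the floor of 3 counts, so no fold is given. The clones differed at least 12.7-fold (adjusted p = 0.00035). The *Plagl1* promoter window, shown because the clones moved apart, had 26 CpG dinucleotides and 1 match to the *Zfp57* letters, in capitals, and spans chr10:13090582-13090881 on the plus strand:
*Plagl1*: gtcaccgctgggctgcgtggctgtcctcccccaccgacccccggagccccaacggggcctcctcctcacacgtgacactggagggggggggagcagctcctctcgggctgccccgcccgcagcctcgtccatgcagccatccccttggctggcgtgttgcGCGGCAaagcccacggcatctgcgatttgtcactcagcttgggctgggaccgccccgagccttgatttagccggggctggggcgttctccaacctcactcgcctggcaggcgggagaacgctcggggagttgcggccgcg

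*Mest* and *Slc38a4*, both paternal, were at 0 counts in the 3 control libraries, and *Mest* rose in *Vcam1*KO1 and *Slc38a4* in both clones. *Mest*, an alpha/beta-hydrolase fold protein named for its expression in mesoderm, lies at chr6:30723547-30748465. It had 247, 38 and 13 counts in *Vcam1*KO1 libraries, at least 36.7-fold above control (adjusted p = 0.004). Most of these counts were in replicate 1, and without it the bound was 7.73-fold (adjusted p = 0.00185). In *Vcam1*KO2 libraries it had 1, 0 and 2 counts, at or under the floor. The clones differed by a ratio of 86.7 (exact 95% interval 29.4 to 423, counting error only; adjusted p = 0.014). That ratio was 21.1 without replicate 1 of *Vcam1*KO1 (exact 95% interval 6.82 to 106; adjusted p = 0.0124), and without replicate 1 or 2 of *Vcam1*KO2 the adjusted p was 0.0508 or 0.054. *Copg2*, which overlaps *Mest* on the opposite strand, was at 46.9, 85.0 and 49.4 CPM on average. Of its 3 promoter windows, 2 that nearly coincide held the *Zfp57* letters 2 times each, more than any other window of these genes, and the first of them spans chr6:30737800-30738099 on the plus strand:
*Mest*: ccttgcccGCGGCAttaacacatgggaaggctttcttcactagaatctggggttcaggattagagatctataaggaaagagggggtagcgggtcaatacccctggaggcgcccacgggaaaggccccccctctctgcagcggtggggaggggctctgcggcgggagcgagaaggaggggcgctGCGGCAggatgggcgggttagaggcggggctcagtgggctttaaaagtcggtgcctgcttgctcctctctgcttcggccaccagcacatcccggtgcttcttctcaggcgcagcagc

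*Slc38a4*, a sodium-coupled amino acid transporter of liver and placenta, stood at 1.89, 2.22 and 0.607 CPM in *Vcam1*KO1 libraries, at least 40.2-fold above control (adjusted p = 9.4e-05). It stood at 0.274, 0.297 and 0.399 CPM in *Vcam1*KO2 libraries, at least 8.28-fold above control (adjusted p = 0.00075). The clones did not overlap and differed by 2.28 on the log2 scale (standard error 0.52, adjusted p = 0.012), and without replicate 1 or 2 of *Vcam1*KO2 the adjusted p was 0.0527 or 0.0517.

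*Gnas* and *Impact* rose in both clones. *Gnas*, the stimulatory G protein alpha subunit, stood at 662, 667 and 745 CPM in *Vcam1*ctrl, 1071, 1052 and 1303 CPM in *Vcam1*KO1 and 1219, 1349 and 1160 CPM in *Vcam1*KO2 libraries. It rose by 0.72 and 0.85 on the log2 scale (standard error 0.13 in both, adjusted p = 0.0011 and 0.00055), summed over transcripts of either allele. *Impact*, a paternal inhibitor of the stress kinase Gcn2, stood at 29.5, 19 and 24 CPM in *Vcam1*ctrl, 92.8, 91.0 and 112 CPM in *Vcam1*KO1 and 62.4, 58.9 and 55.6 CPM in *Vcam1*KO2 libraries. The groups did not overlap. It rose 4.08-fold in *Vcam1*KO1 and 2.44-fold in *Vcam1*KO2 (adjusted p = 6.7e-06 and 0.00014), and the clones differed by 0.74 on the log2 scale (adjusted p = 0.0058).

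*Peg13*, a paternal noncoding RNA within *Trappc9*, stood at 9.51, 7.75 and 10.4 CPM in *Vcam1*ctrl, 11.8, 12.0 and 18.2 CPM in *Vcam1*KO1 and 7.03, 6.05 and 4.95 CPM in *Vcam1*KO2 libraries. Its fitted log2 change was 0.60 in *Vcam1*KO1 (adjusted p = 0.04) and -0.62 in *Vcam1*KO2 (adjusted p = 0.042), and the clones differed by 1.22 (standard error 0.23, adjusted p = 0.0027). The calls against control were lost when several single libraries were left out, with adjusted p up to 0.158 in *Vcam1*KO1 and 0.118 in *Vcam1*KO2, while the difference between the clones was called under every alternative. *Trappc9*, on the same strand, had log2 fold changes of 0.81 and 0.32. *Zrsr1*, a paternal U2AF-related retrogene within *Commd1*, stood between 20.9 and 33.1 CPM in *Vcam1*ctrl, 32.6 and 49.7 CPM in *Vcam1*KO1 and 33.6 and 37.8 CPM in *Vcam1*KO2 libraries, with an overlap of *Vcam1*KO1 and control. Its log2 fold changes were 0.53 (adjusted p = 0.041) and 0.36 (adjusted p = 0.15), and the former was lost by DESeq2 (adjusted p = 0.0589) and without any of 7 single libraries (0.0617 to 0.184).

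The remaining genes stayed at or near the floor. In the *Dlk1*-Meg3 domain of chromosome 12, known for growth and for *Dlk1* in hepatoblasts, *Dlk1*, *Rtl1*, *Meg3*, *Rian* and *Mirg* had at most 8 counts in any library other than replicate 1 of *Vcam1*KO1, where *Dlk1* had 49 and *Rian* 20. *Nnat*, neuronatin, had 67 counts in that library and at most 1 elsewhere, and *Rasgrf1*, an exchange factor for Ras, had between 1 and 13 counts in all 9. None of these could be tested. *Dio3*, the deiodinase gene at the far end of the *Dlk1*-Meg3 domain, is on the list of other imprinted genes. It stood at 2.10, 1.59 and 3.68 CPM in *Vcam1*ctrl libraries and at 0 in all 6 clone libraries (adjusted p = 0.00023 and 0.0003).

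**Figure D5:**
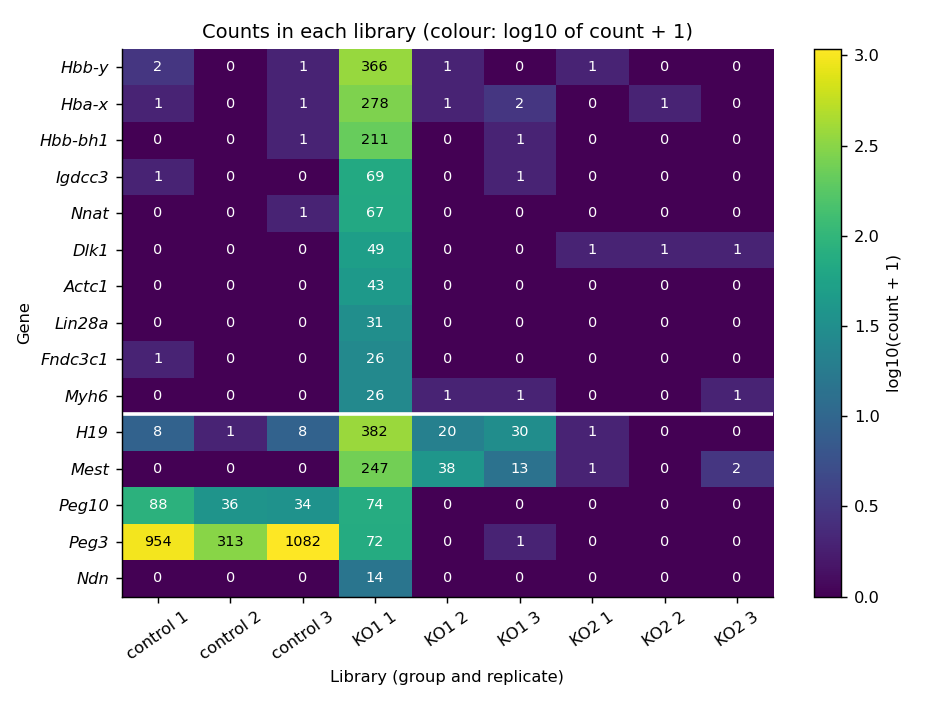
Counts of 15 genes (rows) in each of the 9 libraries (columns), colored by log10 of the count plus 1. Above the white line are the 10 genes with at least 20 counts in replicate 1 of *Vcam1*KO1 and at most 3 in each other library, and below it are 5 imprinted genes that were higher there than in the other *Vcam1*KO1 libraries. *Hbb-y* has 366 counts in that library and at most 2 elsewhere.

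By parental class, 9 of 14 tested paternal genes rose and 4 fell in *Vcam1*KO1, and 3 rose and 8 fell in *Vcam1*KO2. The median of their log2 fold changes in *Vcam1*KO1 was 0.92, and that in *Vcam1*KO2 was -0.67, or -0.31 with genes at 0 in a group set to their bounds. Of 6 tested maternal genes 1 rose and 3 fell in *Vcam1*KO1 and 4 fell in *Vcam1*KO2, with medians of -2.13 and -5.55. The medians over all genes tested were 0.02 and 0.00. Of all genes tested, 29.9% rose and 30.0% fell in *Vcam1*KO1 and 25.3% rose and 26.1% fell in *Vcam1*KO2. All called maternal genes were lower in *Vcam1*KO2, and apart from that each class held genes of both directions: *Igf2* rose where the paternal *Sgce* and *Peg3* fell, and *H19* rose in *Vcam1*KO1 where the maternal *Phlda2* and *Grb10* fell. Among 4 tested noncoding RNAs, 3 rose and 1 fell in *Vcam1*KO1 and 2 fell in *Vcam1*KO2. Of domains with 2 or more tested genes, the *Peg3* domain had 2 of 2 lower in both clones. In the *Peg10* domain 1 of 2 was lower in *Vcam1*KO1 and 2 in *Vcam1*KO2. In the *Igf2r* domain 1 of 2, *Airn*, was lower in each clone, by narrow calls. The *Snrpn* and *Kcnq1* domains each had 1 gene higher and 1 lower in *Vcam1*KO1. Genes within 1 Mb on neither imprinted list had median log2 fold changes, in *Vcam1*KO1 and *Vcam1*KO2, of 0.78 and 0.41 (*Peg3*) and 0.78 and 1.10 (*Peg10*). These medians were 0.25 and 0.20 for *Igf2r*, 0.70 and -0.32 for *Snrpn* and 1.11 and 0.69 for *Kcnq1*.

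Another 55 genes known as imprinted, of which 53 were in the table and 37 were tested, moved in both directions. In *Vcam1*KO1 cells 9 rose and 14 fell, and in *Vcam1*KO2 cells 7 rose and 11 fell, with medians of -0.04 and 0.04, where 59.9% and 51.4% of all genes were called. Of these, 8 changed at least 4-fold in the same direction in both clones, and the 6 with the highest mean level all fell. Besides *Slc22a18*, *Kcnq1* and *Dio3* these were *Ddc*, the aromatic amino acid decarboxylase next to *Grb10*, from 6.74 ± 1.53 CPM to 0.785 ± 0.270 and 0.0246 ± 0.0290 CPM, the serotonin receptor gene *Htr2a*, from 4.13 ± 1.42 CPM to 0.615 ± 0.173 and 0.734 ± 0.139 CPM, and the matrix protein gene *Smoc1*, from 2.38 ± 0.631 CPM to 0.521 ± 0.312 and 0.348 ± 0.124 CPM (SD, n = 3 each). *Ddc*, like *Grb10*, was higher in *Vcam1*KO1 than in *Vcam1*KO2 (log2 difference 4.87, standard error 0.63, adjusted p = 0.00042).

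Among 22 genes of imprint maintenance and DNA methylation, of which 20 were tested, 6 rose and 4 fell in *Vcam1*KO1 and 5 rose and 2 fell in *Vcam1*KO2 cells, where 59.9% and 51.4% of all genes were called. *Zfp57*, whose letters are marked in the promoters above, stood at 44.1, 47.7 and 41.3 CPM in *Vcam1*ctrl, 6.15, 7.04 and 6.98 CPM in *Vcam1*KO1 and 3.43, 2.12 and 1.80 CPM in *Vcam1*KO2 libraries. The groups did not overlap. It fell by 2.72 on the log2 scale in *Vcam1*KO1 (standard error 0.23, adjusted p = 7.5e-06) and dropped by 4.18 in *Vcam1*KO2 (standard error 0.24, adjusted p = 1.2e-06), and was lower in *Vcam1*KO2 than in *Vcam1*KO1 (adjusted p = 0.001). *Dnmt3l*, the cofactor of de novo methylation in germ cells, fell from 1.05 ± 0.682 CPM to 0.00532 ± 0.00922 and 0.13 ± 0.035 CPM (adjusted p = 9.6e-05 and 0.0026). *Tet1*, which oxidizes 5-methylcytosine, rose from 0.192 ± 0.0834 CPM to 4.59 ± 0.942 and 1.63 ± 0.234 CPM (adjusted p = 8.8e-06 and 0.00011).

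Of the 4 general factors named by rule, *Trim28* alone passed the test against control, in *Vcam1*KO2. *Dnmt1*, the maintenance methyltransferase, was at 160 ± 25.8, 111 ± 47.1 and 198 ± 51.2 CPM (adjusted p = 0.18 and 0.45). *Uhrf1*, which brings *Dnmt1* to replicated DNA, was at 122 ± 28.9, 77.4 ± 57 and 196 ± 83.9 CPM (adjusted p = 0.36 and 0.37). *Ctcf*, which binds the unmethylated control region between *Igf2* and *H19*, was at 54.8 ± 5.78, 55.7 ± 4.50 and 55.1 ± 2.70 CPM (log2 fold changes 0.03 and 0.01, standard error 0.11 in both). *Trim28*, the corepressor that *Zfp57* recruits, was at 293 ± 16.4, 270 ± 37.1 and 371 ± 28.4 CPM, with adjusted p = 0.46 in *Vcam1*KO1 and 0.049 in *Vcam1*KO2. DNA methylation itself was not measured.

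The letters TGCCGC, searched on both strands, were found in 9 of 42 promoter windows (21.4%) of the 25 genes that matched the RefSeq table, and in 11.6% of all 32851 windows of 300 bases. Counted by gene, 8 of the 25 (32%) and 13.1% of all 27025 genes had at least 1 match. Matched genes moved in both directions: *Igf2* rose and *Grb10* and *Zim1* fell in both clones, *Mest* rose in *Vcam1*KO1, and *Snrpn* and *Plagl1* rose in *Vcam1*KO1 and fell in *Vcam1*KO2. The 42 windows had a median of 10 CpG dinucleotides, against 7 over all windows, and TGCCGC itself holds a CpG. The letters TATAAA, which hold none, were also found in more of the 42 windows (21.4%) than of all windows (13.6%). No difference was tested, windows of 1 gene can overlap, and many imprinting control regions lie outside promoters. *Sgce*, *Peg10*, *Cdkn1c*, *H19*, *Peg13*, *Rtl1* and *Impact* are named only.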

How the data were processed

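RNA was sequenced from *Vcam1*ctrl, *Vcam1*KO1 and *Vcam1*KO2 cells, 3 libraries each, prepared with a stranded mRNA kit. The authors pseudoaligned reads with kallisto 0.46.1, using strand and a bias correction, to GENCODE M24 transcripts of mm10, and deposited estimated counts per gene symbol, which were whole numbers. No column was left out (0). Sharing of reads between overlapping genes on 1 strand is decided by that estimate. Library totals were between 53415907 and 125223073 counts.

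Counts were filtered with filterByExpr, scaled by TMM and tested with edgeR 4.0.16 quasi-likelihood tests in R 4.3.3 (3 groups, all 9 libraries; 2 groups for the pooled comparison), with p-values adjusted by Benjamini-Hochberg over 17672 genes. The scripts were tested on simulated data. CPM used TMM-scaled library sizes. Intervals of fitted values are 1.96 standard errors. Ratios with 3 counts or fewer in a group carry exact 95% intervals, and these and the floor of 3 counts cover counting error only. Alternatives were limma-voom (limma 3.58.1), DESeq2 1.42.0, upper-quartile scaling, other filters, each library left out, fits on 6 libraries and a 2-fold limit. Positions are from GENCODE M21 and promoters from RefSeq, both GRCm38.

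Some items of the genotype and the marker lists are not reported here. The 32 genes and all lists were chosen with earlier results of these data known. All 32 are named; listed genes are named if called with a 4-fold change in the same direction in both clones (at most 6 a list, by mean CPM) or if direct partners (*Igf1r*, *Insr*, *Dnmt1*, *Uhrf1*, *Ctcf*, *Zfp57*, *Trim28*).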

Additional observations from a re-analysis of the deposited data

Results flagged for a closer look

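For 10 of the 21 tested genes the change in *Vcam1*KO1 differed from the change in *Vcam1*KO2 in the test of the clones against each other (edgeR quasi-likelihood, adjusted p under 0.05, where 38.7% of all genes were called). As log2 differences, *Vcam1*KO1 minus *Vcam1*KO2, these were 9.04 for *Grb10*, 8.47 for *Plagl1*, 8.30 for *H19*, 6.4 for *Mest*, 5.01 for *Cdkn1c*, 3.01 for *Snrpn*, 2.28 for *Slc38a4*, 1.22 for *Peg13*, 0.74 for *Impact* and -2.20 for *Phlda2*. Those of *Grb10*, *Plagl1*, *H19* and *Mest* are fitted against 3 counts or fewer in *Vcam1*KO2, so their size depends on the prior count. Without replicate 1 of *Vcam1*KO1, those of *H19* and *Mest* were 5.61 and 4.14.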

How the results depend on the processing

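Of 912 values of single genes under the alternatives, 830 kept direction and side of the threshold, 53 were no longer called, 15 became called and 14 changed sign. With a filter at a mean of 1 CPM, 14 of the 32 genes were tested. Since fewer genes were tested, 11 in place of 18 were called in *Vcam1*KO1, 11 in place of 16 in *Vcam1*KO2 and 6 in place of 10 between the clones. Over the other alternatives that left out no single library, calls numbered 14 to 19 in *Vcam1*KO1, 13 to 17 in *Vcam1*KO2, 9 to 13 between the clones and 10 to 14 in the pooled comparison. With 1 library left out they numbered 16 to 18, 13 to 17, 7 to 11 and 10 to 12. Values that changed sign were not called: *Igf2r* in *Vcam1*KO2 ranged from -0.069 to 0.304 with 1 library left out, and the differences between the clones from -0.887 to 0.197 for *Igf2*, -0.665 to 1.106 for *Sgce*, -0.24 to 0.165 for *Airn* and -0.012 to 0.296 for *Zrsr1*. *Airn* was at -0.02 by limma-voom and -0.017 with no filter. The cause was not tested. Between the clones, *Peg3* was called by DESeq2 (adjusted p = 0.0204) and with no filter (0.0224), and *Peg10* with no filter (0.0232), but without replicate 1 of *Vcam1*KO1 the adjusted p was 0.415 for *Peg3* and *Peg10* had 0 counts in both clones. No paired analysis was possible because the labels give no replicate numbers, and those used here follow label order only. Depth limits the genes at or near 3 counts, which were not tested or are given as bounds or ratios.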
